A study of Mus musculus with 2 samples.

Results

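A set of 9 genes of pulmonary surfactant and the lamellar body was followed in nuclei of fetal mouse lung: Sftpc, Sftpb, Sftpa1, Sftpd, Abca3, Lamp3, Slc34a2, Napsa and Lpcat1. They were taken by name and are 9 of the 32285 gene features counted in each library, and all 9 had counts in both. In nuclei gated as alveolar type 2 (AT2) every one of the 9 was higher than in nuclei gated as alveolar type 1 (AT1) and than in immune and stromal nuclei, in both libraries. Between the libraries no member differed 2-fold in AT2-gated nuclei, and Sftpd stood at a higher level in the library from the asthma model while Sftpc, Sftpb, Sftpa1, Abca3 and Slc34a2 stood lower. These directions held over all settings tried for Sftpd, Sftpc and Abca3, and turned under some settings for Sftpb, Sftpa1 and Slc34a2. Signal of all 9 genes was also counted in nuclei of non-epithelial types. There 1 member in PBS and 3 in OVA were above the proportion to Sftpc seen in AT2-gated nuclei, and 1 in OVA was below it. Lpcat1 was above it in both libraries, though in PBS not under every setting. Also above it in both were Sftpd, Sftpb and Abca3 in Club-gated nuclei and Abca3, Napsa and Lpcat1 in AT1-gated nuclei. The same held for Abca3 and Napsa in macrophage clusters.

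Surfactant is a film of phospholipid and protein that lowers surface tension in the air spaces, and AT2 cells make it, store it in lysosome-related organelles called lamellar bodies and secrete it. Its production climbs late in gestation in preparation for breathing. Sftpb and Sftpc encode the small hydrophobic proteins SP-B and SP-C that work in the lipid film, and Sftpa1 and Sftpd encode the collectins SP-A and SP-D, which bind sugars on microbes. Abca3 pumps phospholipid into the lamellar body, Lamp3 (also called DC-LAMP) lies in its membrane, Slc34a2 is a sodium-phosphate cotransporter, Napsa is an aspartic protease that takes part in maturing SP-B, and Lpcat1 is an acyltransferase that makes the saturated phosphatidylcholine of surfactant.

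The samples were 1 PBS and 1 OVA library of wild-type C57BL/6J fetuses at gestation day 18, with 9 and 8 fetuses pooled, each pool from 1 dam. Dams were 6 to 8 weeks old at sensitization. All of them received alum intraperitoneally in PBS on days -21 and -7 before mating to untreated males. Those of the OVA group also received 100 µg of ovalbumin (OVA) with it and then 500 µg of OVA intranasally every few days from gestation day 4 to day 17, and those of the PBS group received PBS intranasally on that schedule. Before nuclei were isolated, epithelium (EpCAM+), immune cells (CD45+) and group 2 innate lymphoid cells (ILC2s) had been sorted, and each library holds all of these, so the numbers of nuclei per type are not those of the lung. RNA and accessible chromatin were measured in the same nuclei. With 1 library per group the condition, the dam, the pool and the library cannot be told apart, and every interval given is an exact 95% interval for counting error only.

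The PBS library held 8019 barcodes and 11473351 unique molecular identifiers (UMIs, counted RNA molecules) and the OVA library 5960 barcodes and 13774959 UMIs, of which 45.2% and 29.2% were mitochondrial. After filters 4279 and 4996 nuclei were left, with a median of 649 and 1212 UMIs of nuclear genes, and 54 barcodes occurred in both libraries. Marker lists that held none of the 9 genes placed 1411 and 2275 nuclei in a type. Stromal nuclei were among them in both libraries, although the sort named no gate for such cells, and 482 nuclei in PBS and 796 in OVA were gated as fibroblast. Levels are given as counts per 1000000 UMIs of nuclear genes (CPM), summed over the nuclei of a type.

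The AT2 gate took 218 nuclei in PBS and 211 in OVA. Its 13 markers summed to 9939 CPM in PBS and 8627 CPM in OVA, and all 13 had UMIs in both. In AT1-gated nuclei, 169 in PBS and 206 in OVA, the same markers summed to 997 and 554 CPM, with 12 and 10 of 13 detected, so AT1-gated nuclei held AT2 marker RNA in both libraries and more of it in PBS. Across the 5 non-epithelial types with at least 50 nuclei in each library (fibroblast, myofibroblast or smooth muscle, pericyte, ILC2 and macrophage, 884 nuclei in PBS and 1659 in OVA) the AT2 markers summed to between 83.7 and 280 CPM. Of 8 general epithelial genes, among them Epcam and Cdh1, all were detected in AT2-gated nuclei of both libraries, at a sum of 1316 and 1574 CPM. The sums in PBS and OVA were 47.8 and 24.0 CPM in fibroblasts and 44.7 and 26.9 CPM in macrophages. They were 52.5 and 10.9 CPM in myofibroblast or smooth muscle, 123 and 114 CPM in ILC2s and 263 and 41.1 CPM in pericytes. Which part of any member's signal in a type came from RNA of other cells was not tested.

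The 9 genes lie on 7 chromosomes of the mm10 (GRCm38) mouse genome. Sftpc (ENSMUSG00000022097, chr14:70520949-70524081, minus strand) is a gene of 3.133 kb, and Lgi3, which was an AT2 gate marker, starts 6.747 kb away. Sftpa1 (ENSMUSG00000021789, chr14:41131782-41136452, plus) and Sftpd (ENSMUSG00000021795, chr14:41172214-41185149, minus) are neighbours whose starts are 53.367 kb apart. Sftpb (ENSMUSG00000056370) lies at chr6:72304610-72314371, plus, and Lamp3 (ENSMUSG00000041247) at chr16:19653378-19706375, minus. The remaining members are Abca3 (ENSMUSG00000024130, chr17:24351950-24410201, plus), Slc34a2 (ENSMUSG00000029188, chr5:53038081-53071664, plus, with its start set at 53049352 in the files), Napsa (ENSMUSG00000002204, chr7:44572380-44586862, plus) and Lpcat1 (ENSMUSG00000021608, chr13:73467197-73516422, plus). Abca3, Slc34a2 and Napsa overlap annotated antisense genes, and the strand setting of the counting was not given in the sources used here.

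The promoters of 4 members are shown because the chromatin at their starts fell into contrasting kinds, described further on: the starts of Sftpb and Slc34a2 were open in AT2-gated and, less so, in AT1-gated nuclei and low in non-epithelial nuclei, and those of Abca3 and Lpcat1 were open in every type compared. The sequences are RefSeq's for GRCm38.p6, on the plus strand and read toward the gene. Those of Sftpb, Slc34a2 and Lpcat1 end 1 base before the start. The Abca3 start in the files is 24352023, and its sequence ends farther before it, as 73 exonic bases next to that start were left out. Bases that annotated exons cover were left out, which leaves chr6:72304360-72304609 for Sftpb, chr5:53049189-53049351 for Slc34a2, chr17:24351773-24351949 for Abca3 and chr13:73466981-73467196 for Lpcat1. Capitals mark CTCAAG, the core letters bound by NKX2-1, or TTGCNNAA, a C/EBP letter pattern.
Sftpb: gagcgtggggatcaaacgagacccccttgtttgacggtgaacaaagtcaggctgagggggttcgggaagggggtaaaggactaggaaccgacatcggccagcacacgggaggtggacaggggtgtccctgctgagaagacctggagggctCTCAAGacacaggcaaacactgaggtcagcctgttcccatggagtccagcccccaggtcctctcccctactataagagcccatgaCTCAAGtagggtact
Slc34a2: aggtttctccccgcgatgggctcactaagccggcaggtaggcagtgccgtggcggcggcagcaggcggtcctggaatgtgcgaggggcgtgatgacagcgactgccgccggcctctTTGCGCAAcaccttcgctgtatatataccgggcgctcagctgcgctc
Abca3: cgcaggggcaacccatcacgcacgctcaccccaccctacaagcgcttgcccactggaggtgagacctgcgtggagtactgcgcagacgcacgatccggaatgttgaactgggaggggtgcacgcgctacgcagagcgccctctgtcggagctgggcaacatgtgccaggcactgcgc
Lpcat1: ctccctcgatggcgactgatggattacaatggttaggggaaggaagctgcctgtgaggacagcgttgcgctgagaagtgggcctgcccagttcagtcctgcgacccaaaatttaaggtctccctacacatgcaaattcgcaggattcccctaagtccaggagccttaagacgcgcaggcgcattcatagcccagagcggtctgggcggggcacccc
The 250 bases before the start of Sftpb held CTCAAG at 100 to 95 and again at 15 to 10 bases before the start, and the window of Sftpa1 held it at 166 to 161 bases before. Searched on both strands, CTCAAG was in 13.3% of all 32851 promoter windows of that length. TTGCNNAA stood 48 to 41 bases before the start of Slc34a2 and was in 9.56% of windows, TGTTTA (a FOXA pattern) stood at 92 to 87 bases before Lamp3 and was in 12.0%, and TATAAA stood at 30 to 25 bases before Sftpa1 and was in 12.4%. None of these 4 patterns was in the windows of Abca3 or Lpcat1. These are matches of letters, with no binding measured.

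Of the hydrophobic surfactant proteins, Sftpc was counted in every AT2-gated nucleus of both libraries, with a median of 29 UMIs per nucleus in PBS and 45 in OVA and a maximum of 403 and 300. Its level was 32966 CPM in PBS and 26436 CPM in OVA. Sftpb stood at 3194 CPM in PBS and 2831 CPM in OVA, from 896 and 1399 UMIs. The OVA library was lower for both, by -0.32 (interval -0.36 to -0.28) for Sftpc and -0.17 (-0.30 to -0.05) for Sftpb, on the log2 scale of the CPM ratio.

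Sftpa1 was at 2064 CPM in PBS (579 UMIs) and 1742 CPM in OVA (861 UMIs), a log2 difference of -0.24 (-0.40 to -0.09). Sftpd, its chromosomal neighbour and the other collectin, was at 724 CPM in PBS (203 UMIs) and 947 CPM in OVA (468 UMIs), a log2 difference of 0.39 (0.15 to 0.63). Sftpd was the 1 member of 9 whose interval lay above 0. Sftpa1 was lower in OVA in 9 of 11 settings and slightly higher in 2 (-0.33 to 0.02). Sftpd stayed higher in all 11 (0.30 to 0.70). Opposite directions of these collectins were therefore not seen under every setting, but Sftpd lay above Sftpa1 in each.

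Among the lamellar body genes, Abca3 was at 1230 CPM in PBS and 1014 CPM in OVA, with a log2 difference of -0.28 (-0.48 to -0.08). Slc34a2 was at 3159 CPM in PBS and 2760 CPM in OVA, a log2 difference of -0.19 (-0.32 to -0.07). Abca3 was lower in the OVA library in all 11 settings, and Slc34a2 was lower in 8 and higher in 3. For Lamp3 (1152 and 1252 CPM), Napsa (599 and 564 CPM) and Lpcat1 (1273 and 1240 CPM) the intervals included no difference, at 0.12 (-0.08 to 0.32), -0.09 (-0.37 to 0.20) and -0.04 (-0.23 to 0.16).

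No member of 9 was 2-fold apart between the libraries in AT2-gated nuclei, where 9.24% of the 5680 genes with at least 20 UMIs were. The median over the members was -0.17 and over all those genes 0.09. The members' median turned positive with mitochondrial UMIs in the denominator (0.0787), in named clusters (0.0197) and after thinning (0.0420). Relative to that all-gene median Sftpc was at -0.41 and Sftpd at 0.30 (0.06 to 0.54). The mitochondrial share of AT2-gated nuclei was 34.7% in PBS and 22.1% in OVA. Putting mitochondrial UMIs in the denominator raised every log2 difference by 0.25, the all-gene median included, and left the order of the members as it was. Over the 11 settings tried, Sftpc was lower in OVA in 11 (-0.41 to -0.07), Abca3 was lower in 11 (-0.55 to -0.02) and Sftpd was higher in 11 (0.30 to 0.70), while Sftpb, Sftpa1, Lamp3, Slc34a2, Napsa and Lpcat1 took both signs.

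**Figure D1:**
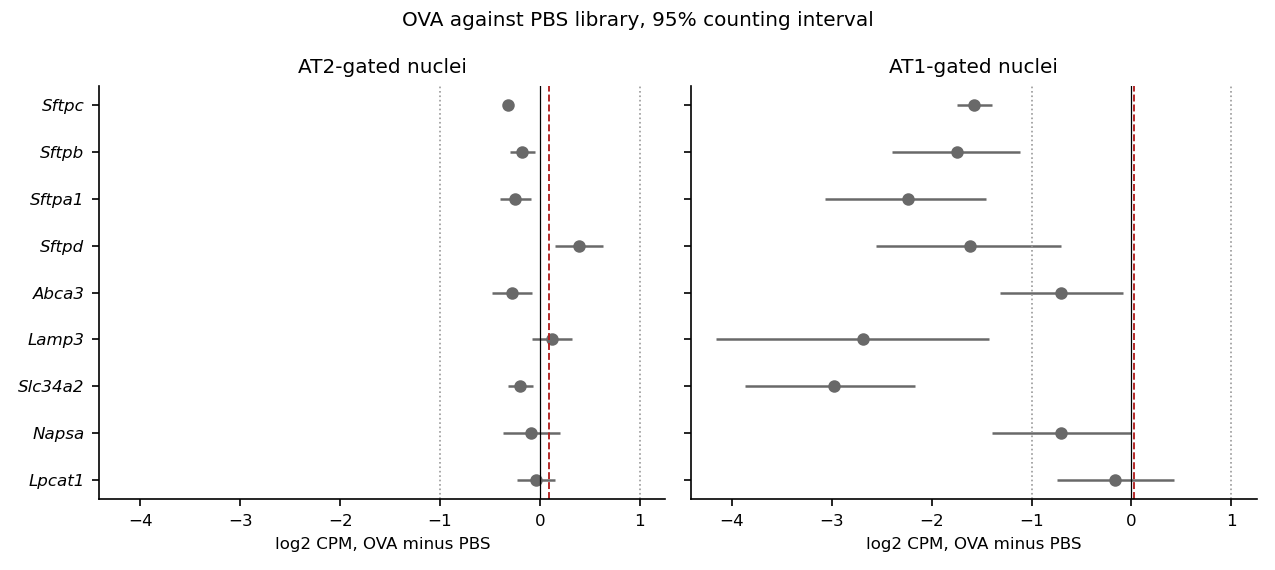
Log2 ratio of OVA to PBS CPM for each of the 9 genes in AT2-gated and in AT1-gated nuclei, 1 library per group. Points are ratios and bars exact 95% counting intervals, dotted lines mark 2-fold and the dashed red line the median of all genes tested (0.09 and 0.02); in AT2-gated nuclei all 9 lie inside the 2-fold lines, and in AT1-gated nuclei 6 lie below the lower one.

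Across the 7 types with at least 50 nuclei in each library, AT2-gated nuclei came first for all 9 genes in both libraries. All 9 were at least 2-fold higher in AT2-gated than in non-epithelial nuclei in each library, against 13% of genes tested in PBS and 13.6% in OVA. The ratio ran from 28.5-fold (Lpcat1) to 67.4-fold (Sftpa1) in PBS and from 40.6-fold (Lpcat1) to 108-fold (Sftpd) in OVA. Sftpc stood at 702 CPM in non-epithelial nuclei of PBS and 343 CPM in those of OVA, 47.0-fold and 77.1-fold under AT2-gated nuclei. Slc34a2 stood at 75.3 and 30.2 CPM there, Sftpb at 56.5 and 27.0 CPM and Lpcat1 at 44.7 and 30.6 CPM. The AT2 gate and the members share their source, since the gate markers are AT2 genes, so the ratios describe how far the 9 genes follow that gate.

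Among these 7 types, nuclei gated as AT1, the thin cells of gas exchange, had the second level of all 9 genes in PBS and of 8 in OVA (the few Club-gated nuclei are described further on). All 9 were at least 2-fold higher in AT2-gated than in AT1-gated nuclei in each library, against 12.6% of genes tested in PBS and 15.3% in OVA. In PBS the AT2 level was between 3.41-fold (Napsa) and 10.7-fold (Sftpb) the AT1 level. In OVA it was between 5.24-fold (Napsa) and 68.1-fold (Lamp3). Lamp3 was the fifth among the types in OVA, at 18.4 CPM in AT1-gated nuclei, and there AT1 and the types next to it differed by less than counting error for Lamp3, Sftpb, Sftpa1 and Slc34a2. The same held in PBS for Lamp3 and Lpcat1.

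**Figure D2:**
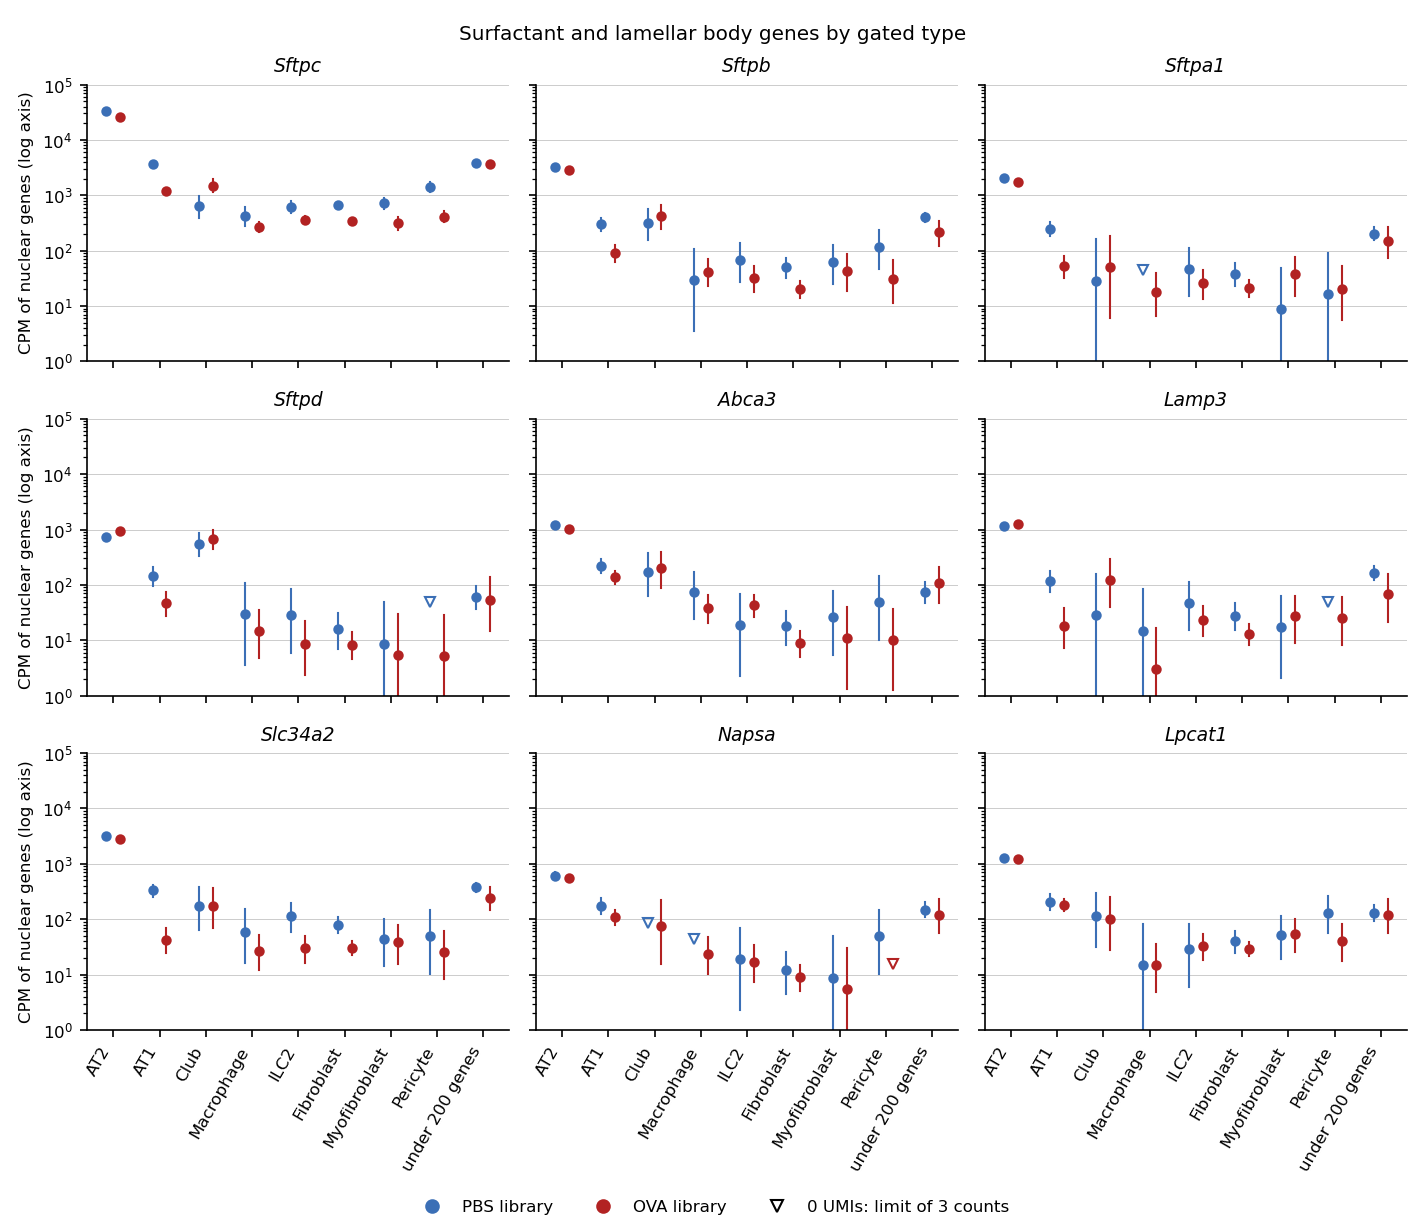
Level of each of the 9 genes in CPM on a log axis, by gated type and library. Points are summed over nuclei, bars are exact 95% Poisson intervals cut off at 1 CPM, and open triangles mark types with 0 UMIs at the level that 3 counts would give; barcodes with under 200 genes are at the right. The AT2 point of each library lies above its points for the other types in each panel, with Sftpc at 32966 and 26436 CPM, and for Sftpd the intervals of AT2 and Club overlap.

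Each of the 9 members differed more between the libraries in AT1-gated than in AT2-gated nuclei, for Abca3, Napsa and Lpcat1 within counting error. Genes in general did not. In AT1-gated nuclei 217 of 4691 genes tested were at least 2-fold higher in OVA and 180 lower. In AT2-gated nuclei it was 356 and 169 of 5680. In AT1-gated nuclei Sftpc was at 3616 CPM in PBS (700 UMIs) and 1216 CPM in OVA (463 UMIs), a log2 difference of -1.57 (-1.74 to -1.40). Slc34a2 was at 331 and 42.0 CPM, a difference of -2.98 (-3.87 to -2.17), from 64 and 16 UMIs. Sftpb was at 300 and 89.3 CPM, Sftpa1 at 248 and 52.5 CPM, Sftpd at 145 and 47.3 CPM and Lamp3 at 119 and 18.4 CPM. These 6 genes were at least 2-fold lower in OVA, where 3.84% of the genes tested in AT1-gated nuclei were. Abca3 (222 and 137 CPM), Napsa (176 and 108 CPM) and Lpcat1 (207 and 184 CPM) differed less, by -0.70, -0.71 and -0.17, and the interval of Lpcat1 (-0.75 to 0.43) included no difference.

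The AT1 values moved with the AT2 markers listed above, 997 CPM in PBS and 554 CPM in OVA, and with depth, a median of 717 and 1491 nuclear UMIs. In the 85 AT1-gated nuclei of PBS and 101 of OVA with no UMI of any AT2 marker, Sftpc was at 1792 and 856 CPM, a difference of -1.07 (-1.45 to -0.68). The other 8 members had few UMIs there, and the intervals of all 8 included no difference. Nuclei past both the AT1 and the AT2 gate, 23 in PBS and 26 in OVA, had been left out of either type. They held a median of 3120 and 5092 nuclear UMIs, and Sftpc at 14163 and 14059 CPM. With such mixed nuclei kept, 0 members were 2-fold lower in OVA, and likewise 0 in the AT1 clusters, where Sftpc stood at 6204 and 5401 CPM and Sftpd at 183 and 217 CPM. The count of 6 therefore holds for the gate that leaves mixed nuclei out.

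In the same AT1-gated nuclei Abca3, Napsa and Lpcat1 stood out from the other members when each gene was set against Sftpc. Per Sftpc UMI, and relative to AT2-gated nuclei of the same library, Napsa was 2.67 times as frequent in PBS and 4.15 times in OVA, Abca3 1.65 and 2.93 times, and Lpcat1 1.48 and 3.22 times. The intervals of all of these lay above 1. Sftpd was above 1 in PBS alone, at 1.82, and Sftpb, Lamp3 and Slc34a2 were below 1 in OVA, at 0.69, 0.32 and 0.33.

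In nuclei gated as Club, the secretory cells of the airway, the level of Sftpd could not be told apart from the AT2 level. The Club gate took 28 nuclei in PBS and 16 in OVA, and Sftpd stood at 545 CPM (328 to 851) in PBS from 19 UMIs and 673 CPM (444 to 980) in OVA from 27 UMIs. The AT2 level was 1.33-fold and 1.41-fold of that, and both intervals included no difference. On the log2 scale they ran from -0.27 to 1.17 in PBS and from -0.07 to 1.11 in OVA, so they also included a 2-fold difference. Per Sftpc UMI, Sftpd was 39.3 times (19.8 to 77.3) as frequent in Club-gated as in AT2-gated nuclei of PBS and 12.6 times (7.59 to 20.3) in OVA. Sftpb was at 315 and 424 CPM, 5.16 and 2.65 times as frequent per Sftpc UMI, and Abca3 at 172 and 200 CPM, 7.31 and 3.48 times, again with intervals above 1 in both libraries. Sftpa1, with 1 and 2 UMIs, and Napsa, with 0 and 3, were near or under what these few nuclei could show. Sftpc itself was at 631 CPM in PBS and 1497 CPM in OVA, within the range of types outside the epithelium in PBS.

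The signal outside the epithelium was broad. Sftpc had UMIs in 26.7% to 48.6% of the nuclei of each of the 5 non-epithelial types in PBS and in 27.5% to 47.1% in OVA. Its level was 1414 CPM in pericytes, 717 CPM in myofibroblast or smooth muscle, 667 CPM in fibroblasts, 617 CPM in ILC2s and 417 CPM in macrophages of PBS. In OVA it was 411, 315, 348, 361 and 269 CPM in the same types, so each of the 5 was lower there. PBS pericytes also held the general epithelial genes at 263 CPM, against 41.1 CPM in OVA. The other 8 genes reached at most 132 CPM in any of these types in PBS and 54.3 CPM in OVA, and 4 of 40 values in PBS and 1 of 40 in OVA rested on 0 UMIs, for which 3 counts would have been at most 49.3 and 15.4 CPM.

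Barcodes that failed the filters held these RNAs too. In barcodes with under 200 genes, 1919 in PBS and 454 in OVA, Sftpc stood at 3826 and 3684 CPM, Sftpb at 401 and 215 CPM and Slc34a2 at 373 and 242 CPM. Those are levels above the non-epithelial nuclei and below AT2-gated nuclei. Free RNA from 1 source keeps its genes in 1 proportion, so each member was set against Sftpc. In non-epithelial nuclei of PBS, 7 of the other 8 members had an interval that included the AT2 proportion, and Lpcat1 was above it at 1.65 times (1.14 to 2.34). In OVA Lpcat1 was above it at 1.90 times (1.49 to 2.41), Napsa at 1.54 times (1.02 to 2.23) and Abca3 at 1.39 times (1.02 to 1.87), and Sftpb was below it at 0.74. Against the proportion in barcodes with under 200 genes, Lpcat1 alone was above, at 1.89 times in PBS and 2.71 times in OVA.

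Macrophage clusters carried more Abca3 and Napsa per Sftpc UMI than AT2 clusters did. These clusters were built without the 9 genes and held 1156 nuclei in PBS and 1424 in OVA, with cluster 2 giving 779 of them in PBS and cluster 1 giving 935 of them in OVA. Napsa stood at 72.4 CPM (69 UMIs) in PBS and 39.0 CPM (81 UMIs) in OVA, 6.36 times (4.74 to 8.44) and 6.49 times (4.94 to 8.46) the AT2 proportion. Abca3 stood at 70.3 CPM (67 UMIs) and 47.6 CPM (99 UMIs), 3.07 times (2.31 to 4.02) and 3.86 times (3.04 to 4.86). The intervals of Sftpb, Sftpa1 and Slc34a2 included the AT2 proportion in both libraries. Lpcat1 (1.75 times) and Lamp3 (1.61 times) were above it in PBS alone, and Sftpd was below it in OVA (0.49 times). In the monocyte cluster, 97 nuclei in PBS and 214 in OVA, Napsa was likewise above the AT2 proportion, at 6.06 times in PBS (5 UMIs, 99.2 CPM) and 12.4 times in OVA (16 UMIs, 119 CPM). Abca3 was above it there in OVA, at 4.52 times (12 UMIs, 89.0 CPM), and its interval in PBS, from 3 UMIs, included the AT2 proportion. Against barcodes with under 200 genes Napsa was at 3.05 and 3.93 times and Abca3 at 5.93 and 5.40 times, all with intervals above 1. In the far fewer gated macrophages, 70 in PBS and 193 in OVA, Abca3 had 5 and 13 UMIs and Napsa 0 and 8. Macrophage cluster 15, with 48 nuclei in PBS and 50 in OVA, had 1 Napsa UMI in each library. It had 2 and 3 Abca3 UMIs, so the pooled values cannot be read for that cluster.

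**Figure D3:**
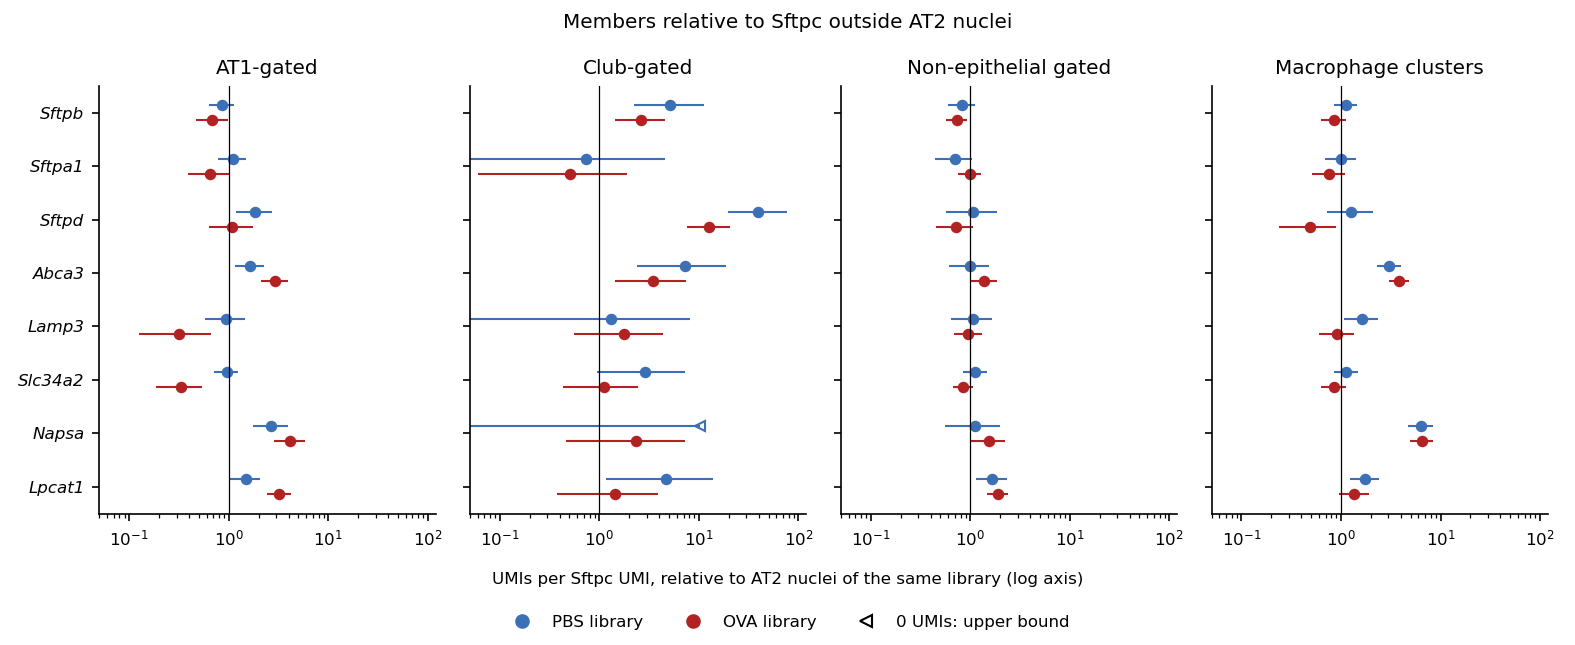
UMIs of each member per Sftpc UMI, divided by the same in AT2-gated nuclei of that library (AT2 clusters for the macrophage clusters), on a log axis where 1 is the AT2 proportion. Panels are AT1-gated, Club-gated and non-epithelial gated nuclei and macrophage clusters, bars are exact 95% intervals cut off at 0.05 and open markers stand at the upper bound where there were 0 UMIs; Sftpd is highest in the Club panel (39.3 and 12.6) and Napsa in the macrophage panel (6.36 and 6.49).

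Single nuclei were compared at equal depth by thinning each to 500 nuclear UMIs, which left 190 AT2-gated nuclei in PBS and 203 in OVA and left out 28 and 8. Sftpc was still counted in all of them. Sftpd was counted in 25.3% (19.3 to 32.1) of them in PBS and 36.5% (29.8 to 43.5) in OVA, or 48.6% and 65.4% of AT2-gated nuclei before thinning, with overlapping intervals at equal depth. Abca3 was in 43.2% and 36.5%, Sftpb in 75.3% and 73.9% and Slc34a2 in 72.1% and 70.0%. In thinned fibroblasts, as cells that do not make surfactant, Sftpc was in 23.7% and 19.7% and Sftpd in 1.25% and 0.383%, where median depths before thinning were 820.5 and 1795 UMIs against 1050 and 1495 in AT2-gated nuclei. A thinned AT2-gated nucleus showed a median of 5 of the 9 genes in each library, between 1 and 9 in PBS and between 2 and 9 in OVA. For AT1-gated nuclei the median was 1, and 28.8% in PBS and 47.2% in OVA showed none of the 9. ILC2s, fibroblasts and macrophages had a median of 0.

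The genes whose levels over types were most like the members' were Retnla (Pearson r 0.974 with the members' mean), Cftr (0.972), Cxcl15 (0.970), Tfcp2l1 (0.969) and Atp6v1c2 (0.966), among 7086 genes over 14 points, 7 types in each of 2 libraries, where points of 1 library share its preparation and sequencing. Retnla encodes a secreted resistin-like protein and stood at 1480 CPM in AT2-gated nuclei of PBS and 1147 CPM in those of OVA. Cftr, a chloride channel, stood at 602 and 704 CPM. Cxcl15, a lung chemokine, was itself a marker of the AT2 gate. Each member's own correlation with the mean of the other members ran from 0.921 (Lamp3) to 0.985 (Sftpb).

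Other genes of the surfactant pathway were read from 4 lists, by the mean CPM of both libraries in AT2-gated over non-epithelial nuclei. Over all 11674 genes tested 13.7% were at least 2-fold higher and 25.9% at least 2-fold lower in AT2-gated nuclei, with a median log2 ratio of -0.18, against 9 of 9 higher and a median of 5.83 for the members. Of 16 genes for making surfactant lipid, 12 were higher and 2 lower, with a median of 1.69. The desaturase Scd1 (5.70) and the fatty acid synthase Fasn (3.60) led the list, and the elongase Elovl6 (-4.73) and the phosphatidate phosphatase Lpin1 (-1.30) ended it. Elovl6 had 1 UMI in AT2-gated nuclei of PBS and 0 in those of OVA, so the size of its ratio is uncertain. Of 15 genes for processing surfactant protein and for traffic of lysosome-related organelles 13 could be read, 3 were higher and 0 lower, and the median was 0.18. Ctsh, a protease that trims surfactant proteins, was at 4.63 and Sfta2 at 4.59, while the organelle biogenesis genes Hps1 and Hps3 were at -0.91 and -0.90. These last 2 rest on few UMIs in AT2-gated nuclei, 1 in PBS and 4 in OVA for Hps1 and 1 and 10 for Hps3.

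Of 15 known regulators of surfactant genes 9 were higher in AT2-gated nuclei and 3 lower, with a median of 2.99. The transcription factors Nkx2-1 (5.43) and Foxa1 (5.05) were at the top, and the glucocorticoid receptor gene Nr3c1 (-1.86) and Cebpd (-1.59) at the bottom. Of 6 genes for taking up and clearing surfactant 1 was higher and 4 were lower, with a median of -1.50. Adgrf5, a receptor through which AT2 cells sense the surfactant pool, stood at 5.50 and the lysosomal phospholipase Pla2g15 at -0.63, and the lipid exporter Abcg1 (-2.91) and Pparg (-2.68), both active in alveolar macrophages, were lower. In AT2-gated nuclei Pla2g15 had 6 UMIs in PBS and 0 in OVA, Abcg1 6 and 1 and Pparg 4 and 8. The sizes of these 3 ratios are therefore uncertain. Between the libraries, in AT2-gated nuclei, 0 of 14 lipid genes, 0 of 10 processing genes and 0 of 1 clearance gene were 2-fold apart, where 9.24% of all genes were. Scd1 was at 1697 CPM in PBS and 1153 CPM in OVA, a difference of -0.56 (-0.74 to -0.38). Of the 15 regulators Yap1 was 2-fold higher in OVA (1.26) and Sox9 2-fold lower (-1.09), 2 names chosen after their values were seen, and 2 of 15 is near that share of all genes.

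Chromatin around the genes was read as transposition counts in the peaks called in each library, summed over the same nuclei and given per 1000000 counts in peaks (accessibility CPM). AT2-gated nuclei held 2424756 such counts in PBS and 2103974 in OVA, and non-epithelial nuclei 6383160 and 12883191. Within 100 kb of a start, 6 of 9 genes were at least 2-fold more accessible in AT2-gated than in non-epithelial nuclei in each library, against 5.79% of protein-coding genes in PBS and 5.31% in OVA. The median log2 ratio over the members was 1.22 in PBS and 1.24 in OVA, and over all genes -0.08 and -0.05. Sftpd had 185 accessibility CPM in AT2-gated and 3.92 in non-epithelial nuclei of PBS, and 160 against 1.86 in OVA, log2 ratios of 5.56 and 6.43. Sftpa1, whose window overlaps that of Sftpd, was at 3.61 and 3.54, and Slc34a2, with no other protein-coding start within 100 kb, at 3.59 and 3.94. Lamp3 was at 2.45 and 2.04, Napsa at 1.22 and 1.24 and Lpcat1 at 1.21 and 1.16. The windows of Sftpc (0.49 and 0.41), Sftpb (0.64 and 0.74) and Abca3 (0.50 and 0.62) stayed under 2-fold. Other coding starts within 100 kb numbered 9 for Sftpc, 7 for Sftpb and 4 for Abca3, and 8 for Napsa, which passed 2-fold.

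Within 2 kb of the start, 7 of 9 genes were 2-fold more accessible in AT2-gated nuclei of PBS and 4 of the 6 with enough counts in OVA, against 8.99% and 8.52% of genes. The peak at the start of Sftpb, chr6:72303935-72304794 in PBS, overlaps its first bases and the promoter printed above. It held 55.7 accessibility CPM in AT2-gated, 30.4 in AT1-gated and 1.57 in non-epithelial nuclei, and in OVA 75.1, 46.6 and 2.17. The start of Slc34a2 (chr5:53048872-53049850) held 30.1, 15.2 and 1.57 in PBS and 30.4, 9.33 and 2.10 in OVA. For these 2 genes the non-epithelial nuclei were lowest and AT1-gated nuclei between. Sftpd had 20.6 accessibility CPM at its start in AT2-gated and 0 in non-epithelial nuclei of PBS, at least 43.9-fold with a floor of 3 counts in that group, and 30.9 and 0 in OVA, at least 133-fold. Napsa was at 31.3 and 4.23 in AT2-gated and non-epithelial nuclei of PBS and 27.1 and 5.28 in OVA.

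Abca3 and Lpcat1 were the exceptions at the start. The peak at the start of Abca3 (chr17:24351533-24352446) held 49.1 accessibility CPM in AT2-gated, 72.7 in AT1-gated and 47.2 in non-epithelial nuclei of PBS and 53.7, 37.3 and 47.0 in OVA, and its log2 ratios of AT2-gated over non-epithelial nuclei, 0.06 (-0.26 to 0.37) and 0.19 (-0.11 to 0.49), included no difference. The start of Lpcat1 (chr13:73466869-73467699) held 35.1, 54.3 and 41.8 in PBS and 35.6, 43.5 and 42.0 in OVA, with ratios of -0.25 (-0.62 to 0.10) and -0.24 (-0.60 to 0.11). In PBS AT1-gated nuclei were above AT2-gated nuclei at both starts. The log2 ratios of AT2-gated over AT1-gated nuclei were -0.57 (-1.01 to -0.11) for Abca3 and -0.63 (-1.15 to -0.10) for Lpcat1. In OVA those intervals included no difference. The types pooled as non-epithelial also differed at the start of Abca3. ILC2s held 85.1 accessibility CPM in PBS and 74.0 in OVA, more than AT2-gated nuclei, and fibroblasts held 36.2 and 33.8. RNA of Abca3 and Lpcat1 was nonetheless at least 28.5-fold higher in AT2-gated than in non-epithelial nuclei of both libraries. Away from the start both had peaks that were higher in AT2-gated nuclei, described here as they were picked for that contrast. In an intron of Abca3, 8.0 kb past its start (chr17:24359592-24360441), the accessibility CPM was 49.1, 39.1 and 1.57 in AT2-gated, AT1-gated and non-epithelial nuclei of PBS and 64.6, 18.7 and 1.71 in OVA. Between genes, 13.2 kb before Lpcat1 (chr13:73453514-73454445), the values were 57.3, 40.2 and 1.25 in PBS and 51.3, 48.2 and 0.854 in OVA, so AT1-gated nuclei were open there too.

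No peak was called at the starts of Sftpc, Sftpa1 and Lamp3 in OVA, whereas in PBS those starts held 30.1, 14.8 and 11.1 accessibility CPM in AT2-gated nuclei and 1.10, 0 and 0.940 in non-epithelial nuclei. Peaks were called in each library alone, so a missing peak is not a measure of closed chromatin. The peaks away from a start given next are leading peaks. Each had the most AT2 counts among peaks within 100 kb that were at least 2-fold higher in AT2-gated than in non-epithelial nuclei. That contrast was therefore fixed by the choice. Sftpc had an intergenic peak 2.9 kb before its start in both libraries (chr14:70526555-70527477 in OVA), with 38.4, 23.9 and 5.33 accessibility CPM in PBS and 46.6, 9.33 and 3.65 in OVA. Lamp3 had one over an exon 7.0 kb into the gene (chr16:19698948-19699872 in PBS), with 27.2, 6.51 and 0 in PBS and 34.2, 12.4 and 0.155 in OVA. A peak between Sftpa1 and Sftpd (chr14:41166987-41167900 in PBS), 17.7 kb past the start of Sftpd, held 38.4 accessibility CPM in AT2-gated, 6.51 in AT1-gated and 0 in non-epithelial nuclei of PBS. In OVA the leading peak of this pair lay over an exon of Mat1a, 26.7 kb before Sftpa1 (chr14:41104479-41105638), with 39.9, 21.8 and 0.310. Each of these peaks overlapped a peak called in the other library, so the change of leading peak is not the loss of a peak. For Slc34a2 the leading peak lay 55.5 kb before the start over exons of 5033403H07Rik and Gm30301 (chr5:52993328-52994329), with 51.1, 8.68 and 0.627 in PBS and 49.0, 3.11 and 0.466 in OVA.

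**Figure D4:**
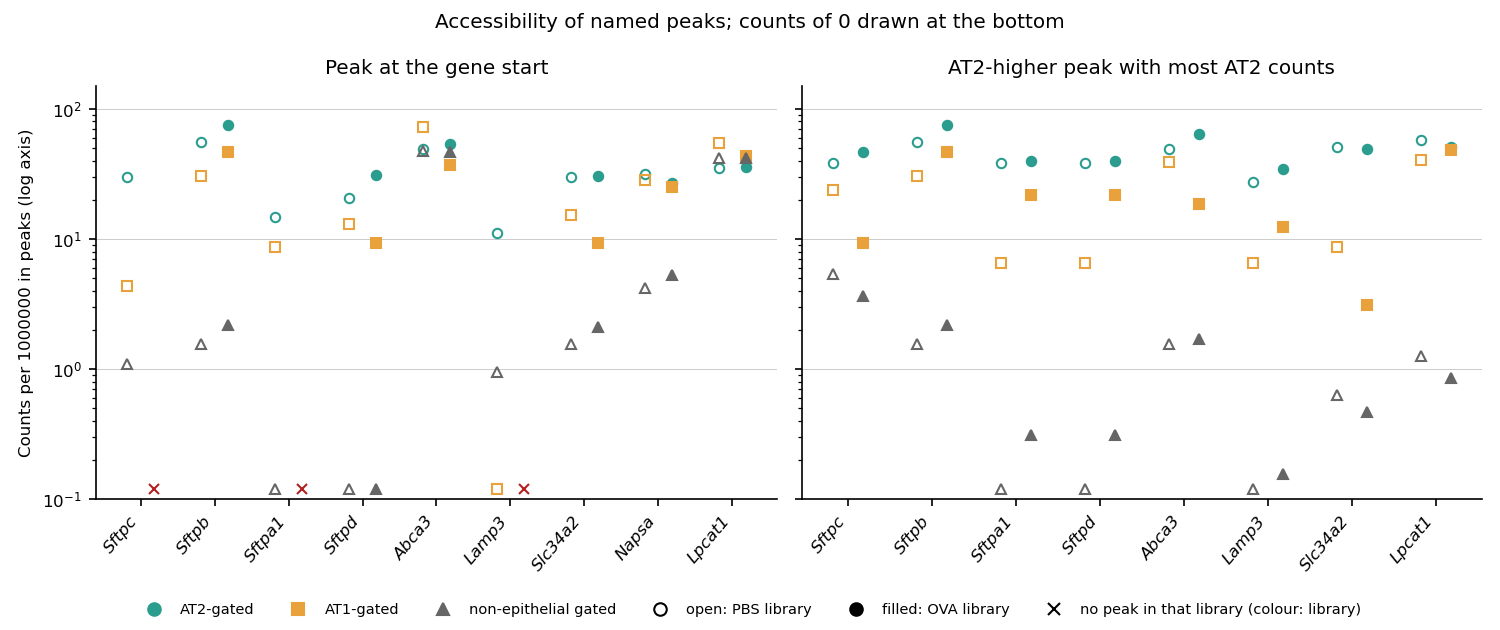
Accessibility CPM (transposition counts per 1000000 counts in peaks), on a log axis, in AT2-gated, AT1-gated and non-epithelial nuclei, at the start of each gene (left) and in the peak within 100 kb with the most AT2 counts among those higher in AT2-gated nuclei (right, not drawn for Napsa). Open points are PBS, filled points OVA, a cross marks a start with no peak in that library and counts of 0 are drawn at the bottom. At the starts of Abca3 and Lpcat1 the 3 groups lie between 35.1 and 72.7 in PBS, with AT1-gated nuclei highest. At the other starts non-epithelial nuclei lie lowest in all but Lamp3, where AT1-gated nuclei had 0.

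Counting single peaks, 70 of 133 within 100 kb of a member with at least 20 counts (52.6%) were 2-fold higher in AT2-gated than in non-epithelial nuclei of PBS, against 22.5% of all such peaks. In OVA it was 65 of 135 (48.1%) against 16.2%. For Sftpd these were 9 of 9 peaks in PBS and 5 of 5 in OVA, for Slc34a2 9 of 11 and 9 of 10, for Napsa 20 of 29 and 19 of 33 and for Abca3 4 of 10 and 4 of 11. Of 56 peaks near members that were 2-fold higher in PBS and overlapped a peak with enough counts in OVA, 53 (94.6%) were 2-fold higher in OVA as well, against 82.6% of all such peaks, and in the other direction 54 of 56 (96.4%) against 82.9%.

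Accessibility in AT2-gated nuclei hardly differed between the libraries. Over peaks that overlapped in both, none of the 9 windows of 100 kb was 2-fold apart, where 1.07% of coding genes were, and the median was 0.04 for the members and -0.01 for all genes. The window of Sftpc was at -0.16 (-0.29 to -0.02), the 1 interval of 9 that did not include 0. Sftpd was at 0.21 and Sftpa1 at 0.18. AT1-gated nuclei were again those of the gate that leaves mixed nuclei out. Overlapping peaks in the window of Slc34a2 held 61.3 accessibility CPM there in PBS (53 counts) and 19.0 in OVA (12 counts). The difference was -1.69 (-2.73 to -0.77), and RNA of Slc34a2 was lower too (-2.98). The window of Abca3 was lower in OVA (-0.32, -0.61 to -0.03), as was its RNA (-0.70). That of Sftpb was higher (0.28, 0.07 to 0.49), while its RNA was lower (-1.75). The intervals of the other 6 included 0, among them Sftpc at -0.02, whose RNA was at -1.57.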

How the data were processed

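Nuclei of 1 PBS and 1 OVA library of fetal lung were read. The deposited counts were whole numbers of UMIs per gene and of transposition counts per peak, which the authors made with Cell Ranger ARC 2.0.1 per the submitters' processing notes, on mm10 (GRCm38), with peaks called in each library and no normalization. The members and lists were chosen with earlier results of these data known. Gene ends came from GENCODE M21 and starts from the deposited feature table. Promoters of Sftpc, Sftpd and Napsa were not used here.

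The study's RNA filter was applied (at least 200 genes, no more than 60% mitochondrial UMIs). Its joint count filter was an alternative, and its limits on nucleosome signal and start-site enrichment were not applied. Then 293 and 250 doublet calls (0.8% per 1000 barcodes, by neighbours among simulated doublets) were removed. A nucleus was gated to a type where at least 2 distinct markers of 1 of 19 panels gave a Poisson tail probability under 0.001 that led the next panel by 2 on the -log10 scale. Nuclei with a second panel past the gate (121 and 246) were left out, a choice made after member values had been seen. Leiden clusters (resolution 1, 3000 variable genes, 30 components, 15 neighbours) and doublet calls were made without the members.

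UMIs were summed per type and divided by UMIs of nuclear genes. No test between conditions was possible with 1 library per group. Intervals were exact (Poisson, Clopper-Pearson for shares, conditional binomial or odds ratio for ratios), at 95%, and cover counting error only. A gene was read with at least 20 UMIs and called past 2-fold, and a ratio over a group at 0 used 3 counts as its floor. The named genes were the 9 members, the 2 highest and 2 lowest of each list and the 5 most alike by Pearson r of log2(CPM + 10) over types with at least 50 nuclei and genes with at least 100 UMIs. Peaks were shared between libraries where they overlapped by at least 1 base. The ratio between libraries and its interval were tested on simulated sums of AT2-gated nuclei. The other steps were not tested on simulated data. Python 3.11.15, numpy 2.4.6, scipy 1.17.1, pandas 2.3.3, scikit-learn 1.9.0, leidenalg 0.10.2 and matplotlib 3.10.9 were used.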

Additional observations from a re-analysis of the deposited data

Results flagged for a closer look

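The OVA to PBS difference of Sftpd was in opposite directions in AT2-gated and AT1-gated nuclei. It was higher in OVA in AT2-gated nuclei (0.39) and lower in AT1-gated nuclei (-1.61), so the 2 differed by 2.00 on the log2 scale, with a counting interval of 1.06 to 2.97. With 1 library per group the difference was not tested. The AT1 direction rests on the gate, from which mixed nuclei were left out after values had been seen: in AT1 clusters it turned, with Sftpd at 183 CPM in PBS and 217 CPM in OVA, and in AT1-gated nuclei with no AT2 marker UMI the difference was -1.05 (-2.85 to 0.79), an interval that includes no difference. The nuclei that passed both gates, 23 in PBS and 26 in OVA, were in neither type.

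Sftpc signal also appeared in barcodes that no comparison used. Barcodes with over 60% mitochondrial UMIs held Sftpc at 1695 CPM in PBS and 1278 CPM in OVA, above the 702 and 343 CPM of non-epithelial nuclei.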

How the results depend on the processing

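No paired analysis was possible because there was 1 library per group, so none could be left out either. The median of the members' OVA to PBS log2 differences in AT2-gated nuclei, -0.17, was 0.0787 with all gene UMIs in the denominator, 0.0197 in named clusters and 0.0420 after thinning to 500 UMIs, and it was -0.0738 with the joint filter on counts and -0.0543 as a mean over single nuclei. Of the 6 genes whose interval did not include 0, those that changed sign were Sftpb (0.0787 with all gene UMIs, 0.00874 as a mean over nuclei), Sftpa1 (0.00832 with all gene UMIs, 0.0197 in clusters) and Slc34a2 (0.0583 with all gene UMIs, 0.0694 in clusters, 0.0456 thinned). Lamp3, Napsa and Lpcat1, whose intervals included 0, were below 0 in 1, 7 and 6 of 11 settings. The list medians between libraries were 0.19 for lipid synthesis with all gene UMIs and -0.0903 for processing with a minimum of 100 UMIs. The count of 6 members 2-fold lower in AT1-gated nuclei of OVA was 0 in named clusters and 0 with mixed nuclei kept. Members above the AT2 proportion to Sftpc in non-epithelial nuclei were 3 in PBS in named clusters and 0 with mixed nuclei kept, and 1 in OVA against barcodes with under 200 genes and 1 with mixed nuclei kept. The median share of AT2-gated nuclei with a member was 68.3% in PBS and 79.1% in OVA without thinning and 71.9% and 67.6% when thinned to 1000. The accessibility median between libraries was -0.0198 within 2 kb and 0.29 with each library's own peaks per kb. The alternatives that kept mixed nuclei, and those for AT1-gated nuclei, were chosen after seeing the data. The cause of these changes was not tested, and few nuclei limit what can be said of Club-gated nuclei. Of the values other than these comparisons' own summaries, 134 stayed within their error under an alternative, 47 moved and 9 changed sign, all 9 given above. Sign changes of Lamp3, Napsa and Lpcat1, whose intervals included 0, are not among those 9.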
